A study of Mus musculus with 7 samples.

Results

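Markers of red cells, white cells and endothelium, 10 miRNAs in all, were followed through 7 small RNA libraries of sorted embryonic mouse spinal cells, as a check of what else the sorted fractions held. They are 10 of the 1908 mature miRNA rows in each of the 2 deposited tables, taken by name: mmu-miR-451a, mmu-miR-144-3p, mmu-miR-144-5p and mmu-miR-486-5p for red cells, mmu-miR-142-3p, mmu-miR-142-5p, mmu-miR-150-5p and mmu-miR-223-3p for white cells, and mmu-miR-126a-3p and mmu-miR-126a-5p for endothelium (mmu, for mouse, is left out below). At E10.5 (embryonic stages are in days), 2 GFP-positive motoneuron libraries and 2 GFP-negative libraries came from Hb9::gfp embryos, whose GFP is driven by the promoter of the motoneuron gene Hb9. At E12.5, 1 library each came from GFP-positive Hb9::gfp motoneurons, from tdTomato-positive V2a interneurons of Chx10::cre;Rosa26::LSL::tdTomato embryos and from tdTomato-positive V3 interneurons of Sim1::cre;Rosa26::LSL::tdTomato embryos. A Cre-dependent reporter stays on in cells that once expressed the Cre, so these sorts follow a lineage. All cells came from microdissected spinal cord dissociated with papain, and none of the labels gives a step that removed blood or vessels before the sort.

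Red cell precursors make miR-451a and miR-144 from neighbouring hairpins under the control of erythroid transcription factors, and miR-451a, cut by Argonaute2 without Dicer, becomes one of the most abundant miRNAs of red cells. miR-142 is made in nearly all blood lineages, miR-223 in myeloid cells and miR-150 in mature lymphocytes. miR-126 comes from the endothelial gene Egfl7 and supports VEGF signalling and vessel integrity. Vessels enter the spinal cord from a plexus around it during these days of development, and blood flows through them. In bulk libraries such as these, fewer cells of a type and less RNA per cell cannot be told apart.

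Sequences were available for 7 of the 10 members from RefSeq (GRCm38.p6), and they are shown with the seed (bases 2 to 8, which pair with targets) in capitals, because the 7 seeds are all different and the opposite-strand partners bear on how reads were assigned.
miR-451a: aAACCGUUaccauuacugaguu
miR-144-3p: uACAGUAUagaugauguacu
miR-144-5p: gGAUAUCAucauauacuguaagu
miR-142-3p: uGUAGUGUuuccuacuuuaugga
miR-142-5p: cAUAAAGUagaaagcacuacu
miR-223-3p: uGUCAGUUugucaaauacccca
miR-126a-3p: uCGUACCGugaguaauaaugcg
miR-142b, on the strand opposite to miR-142-3p: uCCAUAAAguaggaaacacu
miR-126b-5p, on the strand opposite to miR-126a-3p: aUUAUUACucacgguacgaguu
Each of the 7 seeds occurred in 1 row only among the 1605 table rows that could be matched to a sequence, so no member shared its seed with another matched row. RefSeq lists the miR-142 arms as miR-142a. miR-142b is complementary to miR-142-3p over all 20 of its bases, and miR-126b-5p is complementary to miR-126a-3p over a run of 19 bases.

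The hairpins behind these sequences lie at 4 places in GRCm38. Mir144 (chromosome 11, 78073005 to 78073070, plus strand) and Mir451a (chromosome 11, 78073170 to 78073241, plus strand) are 99 bases apart and lie in no other gene annotated by GENCODE M21. Mir142 (chromosome 11, 87756864 to 87756927, plus strand) lies in an intron of the lincRNA gene Mir142hg. Mir223 (chromosome X, 96242817 to 96242926, plus strand) lies in exons of 2 transcripts of F630028O10Rik, a gene of the antisense type. Mir126a (chromosome 2, 26591357 to 26591429, plus strand) lies in an intron of 8 of the Egfl7 transcripts that span it and in an exon of 1, and also in an intron of the overlapping gene Gm20532.

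Levels are given in RPM (reads scaled to a library total of 1000000) at E10.5 and in TPM (the same total after division by length) at E12.5. The E10.5 libraries held 493232 to 802753 reads and the E12.5 libraries 3603553 to 4605444, as recovered from the steps between low values. The limit set by a count of 0, taken as 3 reads, lay between 3.74 and 6.08 RPM in the earlier and between 0.667 and 0.844 TPM in the later libraries. Because PCR duplicates are included, such limits and all 95% intervals describe counting error alone. miR-218-5p, the motoneuron marker, stood at 177885 and 200305 RPM in the E10.5 motoneuron libraries and at 6623 and 7315 in GFP-negative cells. A set of 6 mesenchymal miRNAs held miR-199a-3p, miR-199b-3p, miR-199a-5p, miR-214-3p, miR-143-3p and miR-145a-5p. It summed to 65008 and 74340 RPM in GFP-negative cells and to 1233 and 359 RPM in motoneuron replicates 1 and 2. The motoneuron replicates thus differed 3.44-fold in that sum.

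The blood miRNAs apart from miR-486-5p had at most 18 reads each in any library, the highest being miR-451a in GFP-negative replicate 1. The 7 of them summed to 48.9 and 23.5 RPM (38 and 13 reads) in GFP-negative cells and to 15.0 and 12.2 RPM (12 and 6 reads) in E10.5 motoneurons. At E12.5 they summed to 3.79 TPM for motoneurons, 5.47 for V2a and 5.24 for V3, which is 14, 25 and 22 reads. By contrast, miR-126a-3p was among the 147 most abundant miRNAs in each of the 7 libraries, with ranks from 104 to 147.

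**Figure D1:**
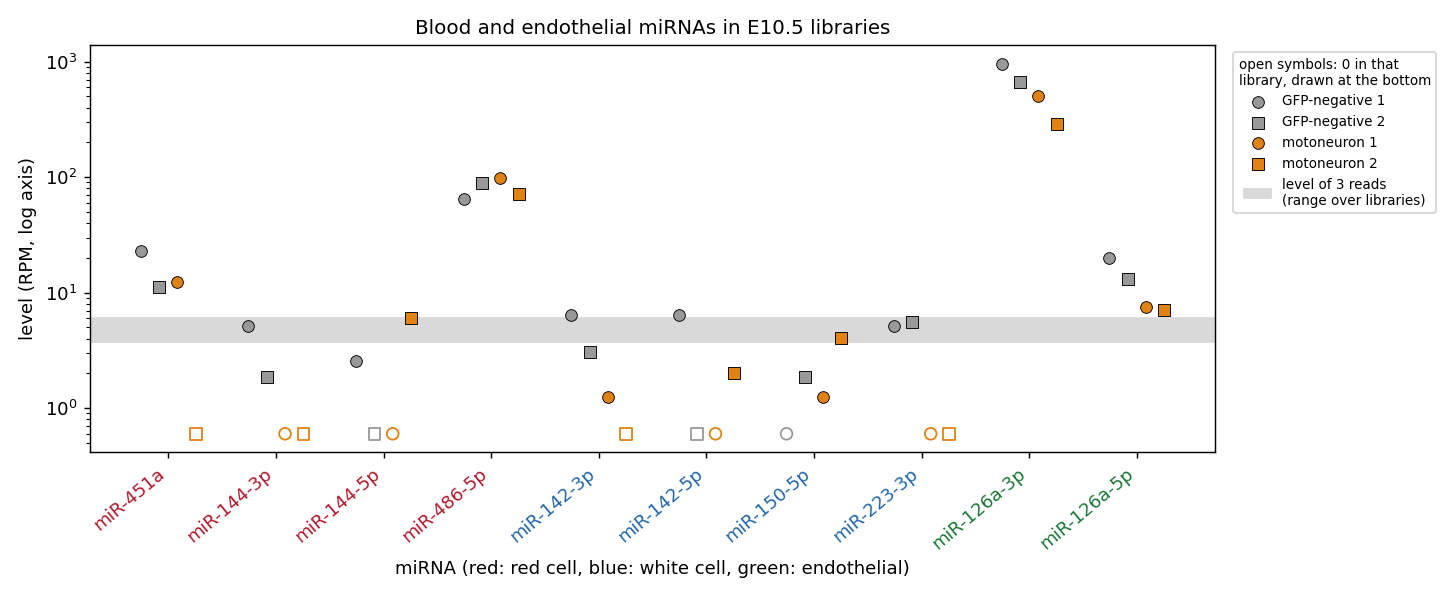
Level of each of the 10 miRNAs (RPM, log axis) in the 4 E10.5 libraries, grey for GFP-negative and orange for motoneurons, with circles for replicate 1 and squares for replicate 2. Only miR-126a-3p and miR-486-5p lie well above the grey band, the level of 3 reads, in all 4 libraries, and open symbols mark libraries at 0.

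Among the red cell miRNAs, miR-451a stood at 23.2 and 11.1 RPM in GFP-negative cells and at 12.46 and 0 RPM in motoneuron replicates 1 and 2. These values are 18 and 6 reads against 10 and 0 reads. Motoneuron replicate 1 lay within the range of the GFP-negative libraries, so the groups overlapped. At E12.5 miR-451a was at 0 in motoneurons and V2a and at 0.240 TPM, a single read, in V3. This marker of red cells thus had at most 1 read in each of the 3 E12.5 libraries.

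miR-144, its neighbour on chromosome 11, was rarer still. miR-144-3p, the arm that carries most of the known targeting activity, had 5.14 and 1.86 RPM (4 and 1 reads) in GFP-negative cells and 0 in both motoneuron libraries. At E12.5 it had a single read in motoneurons (0.310 TPM) and 0 in V2a and V3. miR-144-5p had 2.57 and 0 RPM in the GFP-negative and 0 and 6.08 in the motoneuron libraries, and in the later libraries 0.808 TPM for motoneurons, 1.91 for V2a and 0 for V3. The 9 reads of miR-144-5p in V2a were its highest count in the 7 libraries, while miR-144-3p and miR-451a were both at 0 there. The V2a counting interval for miR-144-5p, 0.876 to 3.63 TPM, lay above the V3 limit of 0.721 TPM. It overlapped the V3 interval for 0 reads, 0 to 0.887 TPM, so by these intervals the libraries were not separated. At E10.5 the groups overlapped for miR-144-5p, and miR-144-3p did not pass the test without the abundance filter (limma adjusted p = 0.161).

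miR-486-5p, known from red cells and also from heart and skeletal muscle, was the one red cell member present in all libraries. It stood at 64.3 and 89.6 RPM in GFP-negative cells and at 99.0 and 72.0 RPM in motoneurons at E10.5. The means of 76.9 ± 17.9 (SD, n = 2) and 85.5 ± 19.1 (SD, n = 2) differed by less than the spread between replicates (limma log2 fold change 0.15 with SE 0.34 and adjusted p = 0.744). The groups overlapped. Its sign turned with any of 3 settings: -0.01 with shared rows summed, -0.08 without motoneuron replicate 1 and -0.08 without GFP-negative replicate 1.

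At E12.5 the same miRNA separated the 3 sorted populations. miR-486-5p reached 110 TPM in motoneurons (95% counting interval 98.9 to 121), 33.9 in V2a (28.6 to 39.6) and 6.17 in V3 (4.08 to 9.16). Motoneurons were 3.24-fold above V2a (2.68 to 3.93) and 17.8-fold above V3 (11.9 to 27.5), and V2a was 5.49-fold above V3 (3.61 to 8.68). With 1 library per population these intervals compare libraries and not cell types, and there is no replicate check. Skeletal muscle miRNAs (miR-1a-3p, miR-206-3p and miR-133a-3p) summed to 125 TPM in the motoneuron library, 221 in that of V2a and 61.1 in that of V3. Within that sum, miR-1a-3p had the same order as miR-486-5p, with 118 TPM for motoneurons, 41.2 for V2a and 28.1 for V3. The other muscle miRNAs were highest in V2a. In the same order of libraries, miR-206-3p had 4.50, 175 and 32.9 TPM, and miR-133a-3p had 10, 23 and 0 reads. The other red cell members together held 4, 9 and 1 reads. The part of muscle or red cell RNA in the miR-486-5p levels was not tested.

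**Figure D2:**
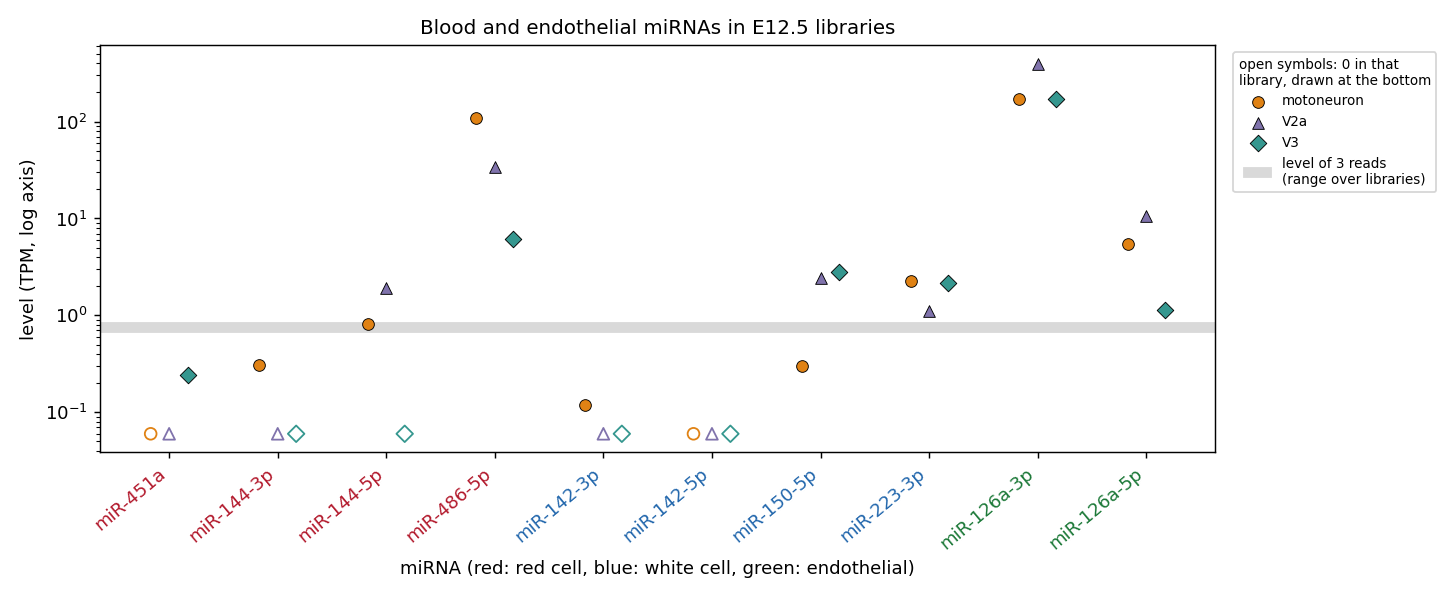
Level of each of the 10 miRNAs (TPM, log axis) in the single E12.5 libraries of motoneurons (circles), V2a (triangles) and V3 (diamonds). miR-486-5p falls from 110 in motoneurons to 6.17 in V3 while miR-451a, miR-144-3p and both miR-142 arms lie below the grey band of 3 reads.

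Which arm of the miR-486 hairpin was counted also varied between libraries. miR-486-3p stood at 122 and 87.7 RPM in GFP-negative cells and at 92.8 and 68.9 in E10.5 motoneurons, and later at 10.9 TPM for motoneurons, 13.4 for V2a and 6.22 for V3. The ratio of 5p over 3p was 0.526 and 1.02 in GFP-negative cells and 1.07 and 1.04 in E10.5 motoneurons. It was 10.01 (7.19 to 14.3) in E12.5 motoneurons, 2.53 (1.87 to 3.47) in V2a and 0.992 (0.554 to 1.78) in V3. By the miR-486 rows alone, the 5p arm was thus in large excess in E12.5 motoneurons. On the same rows the arms were near level in V3 and in 3 of the 4 E10.5 libraries.

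The authors' table places both arms in 1 bundle with miR-3107-5p and miR-3107-3p, so the split of reads among these 4 rows is uncertain. miR-486-5p and miR-3107-5p held identical values in all 7 libraries. The 4 rows together gave 311 and 355 RPM in GFP-negative cells and 384 and 282 in E10.5 motoneurons, so the groups overlapped in the sum too. At E12.5 the sum was 230 TPM for motoneurons, 81.1 for V2a and 18.6 for V3, the same order as that of miR-486-5p alone. With the rows of each arm added, 5p over 3p was 20.02 in E12.5 motoneurons, 5.06 in V2a and 1.98 (1.21 to 3.32) in V3. By that sum the arms in V3 were not level.

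**Figure D3:**
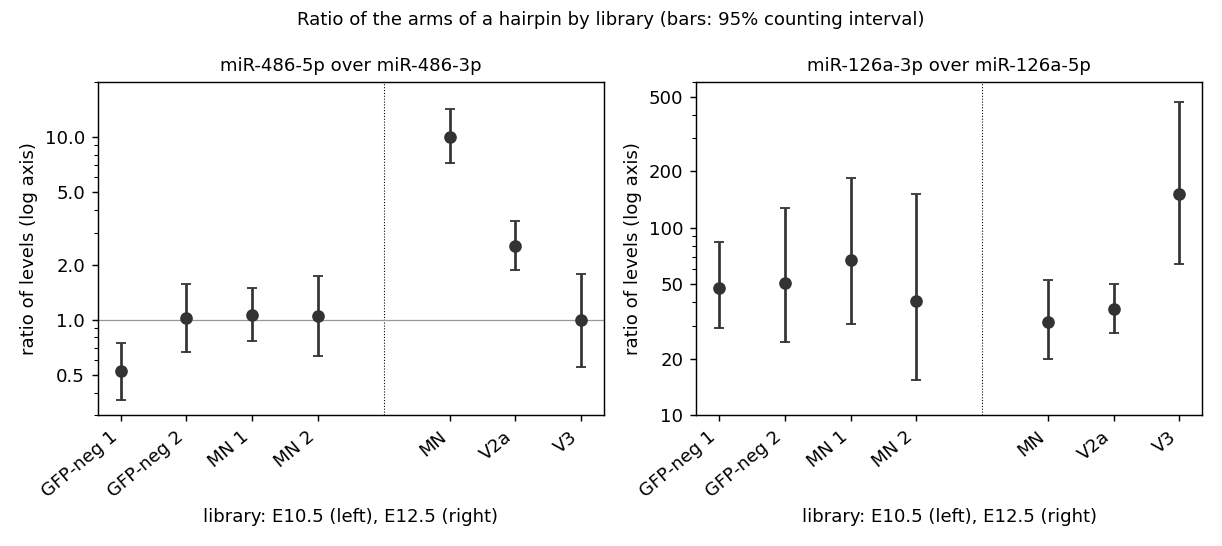
Ratio of the 2 arms of the miR-486 hairpin (left) and of the miR-126a hairpin (right) in each library, on log axes, with 95% counting intervals as bars. Within E12.5, the miR-486 ratio is 10.01 in motoneurons, 2.53 in V2a and 0.992 in V3. The miR-126a ratio there is 151 in V3 against 31.6 in motoneurons and 36.8 in V2a. Shared reads were split differently at E10.5 and E12.5, so the ratios are not comparable between stages.

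Of the white cell miRNAs, miR-223-3p, the myeloid marker, had 5.14 and 5.57 RPM (4 and 3 reads) in GFP-negative cells and 0 in both motoneuron libraries. Its passenger arm miR-223-5p followed with 3.86 and 1.86 RPM against 0 and 0. The groups did not overlap for either arm, but these GFP-negative values lay below 6.08 RPM, the limit for a count of 0 in motoneuron replicate 2. In motoneuron replicate 1 that limit was 3.74 RPM. Both GFP-negative values of miR-223-3p, and the 3.86 RPM of miR-223-5p, lay above it. miR-223-3p lay below the abundance filter, and without that filter its log2 fold change of -2.67 did not pass the test (limma adjusted p = 0.0618). At E12.5 miR-223-3p was found in all 3 sorts, at 2.25 TPM for motoneurons, 1.11 for V2a and 2.16 for V3 (8, 5 and 9 reads), with overlapping counting intervals. Motoneurons over V3 gave a ratio of 1.04 (0.349 to 3.04).

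miR-142-3p, made in most blood lineages, had 6.43 and 3.09 RPM in GFP-negative cells and 1.25 and 0 RPM in motoneurons. miR-142-5p had 6.43 and 0 RPM against 0 and 2.03. miR-142-3p thus rested on 6.66 reads over both GFP-negative libraries and on 1 over both motoneuron libraries. At E12.5 miR-142-5p was at 0 in all 3 libraries, the only member at 0 throughout a table, and miR-142-3p had 0.120 TPM in motoneurons only, with 0 for V2a and V3. The motoneuron value is a fraction of a read, and with miR-142b, its complement shown above, it adds to 2 reads, so the split between these rows is uncertain.

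miR-150-5p, the lymphocyte marker, had 0 and 1.86 RPM in GFP-negative cells and 1.25 and 4.05 RPM in E10.5 motoneurons, none over 2 reads. At E12.5 it stood at 0.3002 TPM in motoneurons (1 read), 2.45 in V2a (11 reads) and 2.83 in V3 (about 12 reads). V2a was 8.15-fold above motoneurons, with an interval from 1.18 to 351, and V3 was 9.44-fold above them (1.40 to 404). The V2a and V3 libraries did not differ beyond counting error (ratio 0.863, 0.345 to 2.14). The other arm, miR-150-3p, had 14 reads in V2a (3.11 TPM) and 0 in motoneurons and V3.

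The endothelial miR-126a-3p was the most abundant member in all 7 libraries when each row is taken alone. In E12.5 motoneurons, however, miR-486-5p and the identical row miR-3107-5p together held 219 TPM, against 172 TPM for miR-126a-3p. At E10.5 miR-126a-3p stood at 957 and 663 RPM in GFP-negative cells and at 501 and 288 RPM in motoneuron replicates 1 and 2. Both motoneuron libraries lay below both GFP-negative libraries. The means were 810 ± 208 RPM (SD, n = 2) and 394 ± 151 RPM (SD, n = 2), which limma put at -1.07 on the log2 scale with SE 0.32 and adjusted p = 0.0344. The median log2 fold change over all 492 miRNAs tested was -0.34, and 30.7% of them were called lower (42.3% in either direction), so a fall of this kind was common in the table. miR-126a-3p ranked 133 from the bottom among the 492.

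The call for miR-126a-3p rested on the scaling and on single libraries. With the median of ratios it was -0.79 (limma adjusted p = 0.126), and with quantile normalization -0.47 (limma adjusted p = 0.284). Without motoneuron replicate 2 it was -0.67 (limma adjusted p = 0.153), and without GFP-negative replicate 1 it was -0.80 (limma adjusted p = 0.0766). It was lower in motoneurons in each of the settings run, all-miRNA medians running from -0.40 to 0.15.

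**Figure D4:**
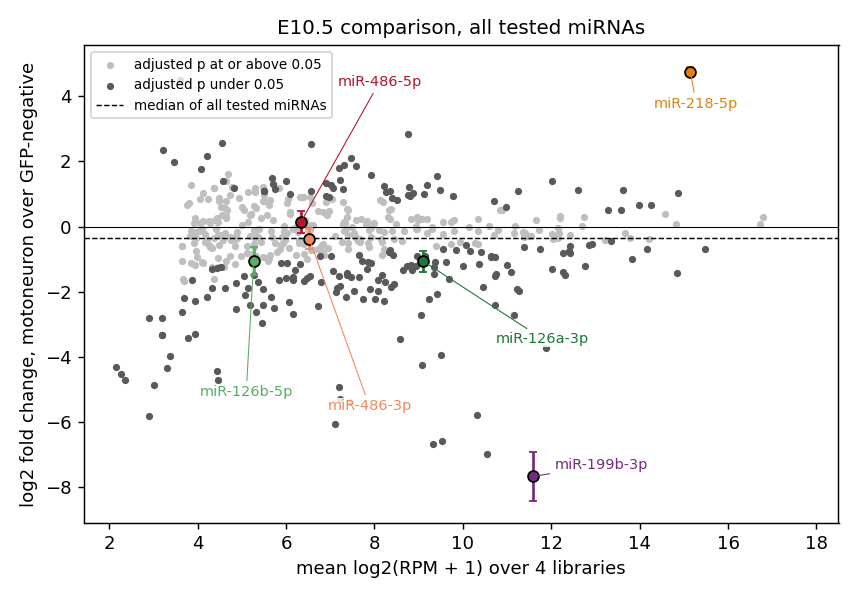
Log2 fold change (motoneuron over GFP-negative) against mean log2(RPM + 1) for the 492 miRNAs tested at E10.5, dark where the limma adjusted p is under 0.05, with bars of 1 SE on the 6 named miRNAs. miR-126a-3p (-1.07) lies within the main cloud below its median of -0.34 (dashed), far from miR-199b-3p (-7.68).

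Other rows of the same locus had similar ratios at E10.5. miR-126a-5p, the other arm, had 19.9 and 13.0 RPM in GFP-negative cells against 7.47 and 7.10 in motoneurons, below the abundance filter. Its reads were split equally with miR-126b-3p, which held the same values. miR-126b-5p, the opposite-strand row shown above, had 59.2 and 50.1 RPM against 36.1 and 18.3 (-1.05 on the log2 scale, SE 0.43, limma adjusted p = 0.0889, and -1.53 with adjusted p = 0.0392 without motoneuron replicate 1). The ratio of motoneurons over GFP-negative cells was 0.487 for miR-126a-3p, 0.442 for miR-126a-5p and 0.498 for miR-126b-5p. These rows share a locus and partly share reads, so they are not independent measurements.

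Set beside the mesenchymal and muscle miRNAs, the endothelial pair had the ratio nearest to 1. Motoneurons held 0.486 of the GFP-negative level of the summed endothelial members, 0.0605 of that of the 3 skeletal muscle miRNAs and 0.0114 of that of the 6 mesenchymal miRNAs, and no mesenchymal or muscle miRNA was at 0 in an E10.5 library. Motoneuron replicate 1 exceeded replicate 2 in all of these lists, 1.72-fold for the endothelial, 2.73-fold for the muscle and 3.44-fold for the mesenchymal sum. In the GFP-negative libraries, replicate 1 over replicate 2 was 1.45, 1.10 and 0.874. The part of these other cell types in the miR-126a-3p result was not tested.

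**Figure D5:**
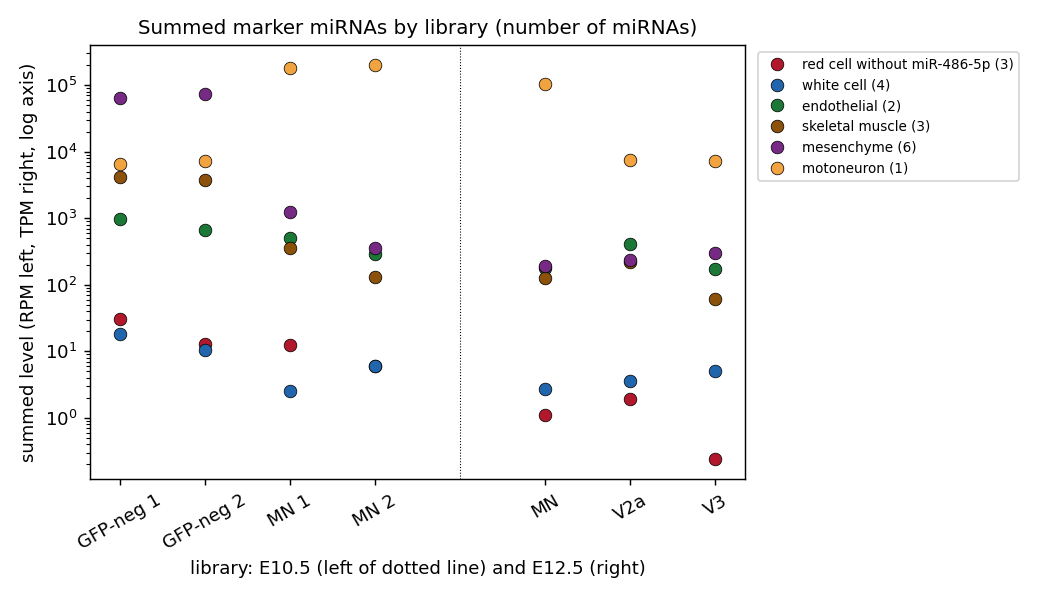
Summed level of each marker set in the 7 libraries (RPM at E10.5 on the left, TPM at E12.5 on the right, log axis), with the number of miRNAs in brackets. The mesenchymal and muscle sums drop steeply from GFP-negative cells to motoneurons while the endothelial sum goes from 977 and 676 to 508 and 295 RPM.

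At E12.5 miR-126a-3p was highest in V2a, at 395 TPM (376 to 413), against 172 in motoneurons (158 to 186) and 173 in V3 (161 to 186). V2a was 2.30-fold above motoneurons (2.10 to 2.52) and 2.28-fold above V3 (2.09 to 2.49). Motoneurons and V3 did not differ beyond counting error (ratio 0.992, 0.889 to 1.11), though totals without the 5 most abundant miRNAs put motoneurons at -0.84 against V3 on the log2 scale. miR-126a-5p followed the order only in part, at 10.7 TPM in V2a, 5.44 in motoneurons and 1.15 in V3. The ratio of 3p over 5p was 31.6 (20.04 to 52.8) in motoneurons, 36.8 (27.6 to 50.1) in V2a and 151 (64.4 to 467) in V3, and 48.0, 51.0, 67.0 and 40.5 in the 4 E10.5 libraries. The V3 ratio rests on about 5 reads of the 5p arm. miR-126b-5p had 10 reads in E12.5 motoneurons and 0 in V2a and V3, although miR-126a-3p had 1774 and 720 reads there.

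Counted over the members, 2 of the 10 passed the E10.5 abundance filter of 15.2 RPM in at least 2 libraries, miR-486-5p and miR-126a-3p. Of these, 1 was called lower and 0 higher in motoneurons, against 30.7% and 11.6% of all tested miRNAs. Without the filter, limma called 0 of the 10 members at an adjusted p under 0.05, where 9.92% of 1270 miRNAs were lower and 2.68% higher. At an unadjusted limma p under 0.05, 3 members were lower there, miR-144-3p, miR-223-3p and miR-126a-3p. That threshold is a loose one here, as 259 of the 492 miRNAs above the filter passed it in either direction. Its share of the 1270 was not counted, so no excess of members can be read from these 3. Without overlap between the groups, 5 of 10 members were lower and 0 higher, where 28.4% of those 1270 miRNAs, and 48.6% of the 492 above the filter, were lower without overlap. Higher without overlap were 25% of the 492, and the share of the 1270 was not counted. The 5 lower members were miR-144-3p, miR-142-3p, miR-223-3p, miR-126a-3p and miR-126a-5p. Each but miR-126a-3p rested on at most 22.5 reads over both GFP-negative libraries. Both GFP-negative values of miR-144-3p and miR-223-3p, and the 3.09 RPM of miR-142-3p, lay below 6.08 RPM. That is the limit for a count of 0 in motoneuron replicate 2, where all of these miRNAs were at 0. In motoneuron replicate 1, where miR-144-3p and miR-223-3p were also at 0, the limit was 3.74 RPM. Both GFP-negative values of miR-223-3p, and the 5.14 RPM of miR-144-3p, lay above it.

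At E12.5, 4 of the 10 members reached 2.40 TPM in at least 1 library, namely miR-486-5p, miR-150-5p and both miR-126a arms. None of these 4 was at least 4-fold apart between motoneurons and V2a on the TPM + 1 scale, where 4.17% of 1007 miRNAs were higher and 8.04% lower in motoneurons. Between motoneurons and V3 only miR-486-5p was (log2 ratio 3.95), where 8.74% were higher and 3.67% lower. Between V2a and V3 miR-486-5p (2.28) and miR-126a-5p (2.45) were higher in V2a, as were 10.9% of all, with 2.78% lower. The median log2 ratio of all 1007 was -0.31, 0.24 and 0.52 in these comparisons.

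Beyond the members, 9 miRNAs known from white cells or endothelium, all also found in other cells, were compared at E10.5. Of 9 tested, 8 were lower in motoneurons and 0 higher, where 30.7% of all 492 tested miRNAs were lower and 11.6% higher. Their median log2 fold change was -1.52 against -0.34 over all tested miRNAs. miR-155-5p, induced in activated lymphocytes and macrophages, stood at 54.0 and 50.1 RPM in GFP-negative cells and at 9.97 and 22.3 in motoneurons (-1.73 on the log2 scale, SE 0.47, limma adjusted p = 0.0243). miR-146a-5p, a target of NF-kB signalling, stood at 53.1 and 55.9 against 23.7 and 14.3 RPM (log2 fold change -1.52). miR-222-3p, of a cluster active in endothelium and in dividing cells, stood at 271 and 431 against 112 and 122 RPM (log2 fold change -1.54).

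miR-23a-3p fell furthest of the 9, from 44.0 and 51.0 RPM to 6.41 and 2.21 RPM (log2 fold change -3.31), and it shares reads with another row, as do miR-24-3p, miR-27a-3p and the miR-146 pair. miR-146b-5p did not pass the test, at 312.2 and 393 against 384 and 355 RPM (log2 fold change 0.07, limma adjusted p = 0.808). The count of 8 was 4 with quantile normalization, 5 with shared rows summed, 5 without motoneuron replicate 1, and 5 and 4 without GFP-negative replicates 1 and 2. At E12.5 miR-155-5p was at 2.15 TPM for motoneurons, 2.55 for V2a and 2.99 for V3, and miR-146a-5p at 0.6003, 0.476 and 0.506 TPM in the same order, so both were low in all 3. miR-222-3p went from 9.73 in motoneurons to 1.63 in V2a and 0 in V3. The mesenchymal sums given above move with the E10.5 falls, and their part in them was not tested.

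By pattern over the 7 libraries, each table centred on its own mean, the 3 miRNAs most like miR-126a-3p among 449 were miR-181d-3p (Pearson r 0.99, Spearman rho 0.96), miR-1981-3p (0.98 and 0.96) and miR-25-3p (0.96 and 0.86). miR-181d-3p stood at 25.7, 18.6, 13.7 and 6.08 RPM in GFP-negative replicates 1 and 2 and motoneuron replicates 1 and 2. Later it stood at 0.295 TPM in motoneurons, against 2.56 for V2a and 0.504 for V3. Its E12.5 motoneuron and V3 values lay below the limits of 0.844 and 0.721 TPM, and 6.08 RPM is the limit in motoneuron replicate 2. This likeness thus also rests on few reads. miR-451a was most like miR-30e-5p (r 0.94, rho 0.68), miR-377-3p (0.90 and 0.79) and miR-221-5p (0.90 and 0.72). The row of miR-30e-5p is in a bundle of 5. miR-142-3p was most like miR-339-5p (0.96 and 0.88), miR-154-3p (0.96 and 0.99) and miR-221-5p (0.96 and 0.88). miR-451a and miR-142-3p rest on at most 18 reads a library, and the points share libraries and depth, so these values describe the 7 libraries only.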

How the data were processed

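Small RNAs of 7 libraries were prepared with a NEBNext kit after miRvana extraction and sequenced on HiSeq instruments, per the labels' protocols. Per the submitters' processing notes the tools included Bowtie2. For the counting program, genome build and annotation, each is not given in the sources used here. Deposited E10.5 values are RPM, each library summing to 1000000, with a bundle for rows that share reads. The deposited E12.5 table names no unit; it was read as FPKM because deposited values times RefSeq length summed to 0.981 to 0.988 of the expected total over the matched rows. FPKM were rescaled to TPM. Depth came from the value of 1 read. Within 0.05 of whole reads lay 96.5% to 100.0% of low E10.5 values in single-row bundles and 72.9% to 78.9% of low E12.5 values. No count test was run at either stage. Where RefSeq gave no length, 22 nt was used.

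Motoneuron and GFP-negative libraries were tested using limma 3.58.1 (R 4.3.3) on log2(RPM + 1) (trended, two-sided, Benjamini-Hochberg, threshold 0.05) for miRNAs reaching 15.2 RPM, or 10 reads in a library of median depth, in 2 or more libraries, a procedure tested on simulated data. Folds on this scale understate changes of low miRNAs. An exact permutation of 2 against 2 cannot go below p = 0.333. E12.5 libraries were described, with 4-fold on TPM + 1 as the mark and Poisson or binomial intervals on reads rounded to whole numbers. The tables were scaled separately, and levels were compared only within each. Arm ratios are listed for both stages, but shared reads were split differently in them. miR-126a-5p equalled miR-126b-3p at E10.5 but not in E12.5 motoneurons (5.44 against 0.957 TPM). A change of an arm ratio between stages therefore cannot be told apart from a change in how reads were assigned to rows. The labels do not tell whether replicates had separate litters, and their spread, on which the p-values rest, may be technical. The members and lists were chosen with earlier results of these data known. Named miRNAs were all members, the other rows of their hairpins, the linked list and the 3 most like miRNAs of 3 members; miR-3107 and the examples of the linked list were picked after their values were seen.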

Additional observations from a re-analysis of the deposited data

How the results depend on the processing

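Of the E10.5 results, the lower call of miR-126a-3p was the least stable. It was -0.84 with TMM factors, -0.79 with the median of ratios, -1.07 with only rows at 0 removed (limma adjusted p = 0.0690), -0.47 with quantile normalization and -0.69 with totals without the 5 most abundant miRNAs, so under these 5 settings 0 members were called, and without motoneuron replicate 2 or GFP-negative replicate 1 also 0. Leaving out single libraries gave -1.46 to -0.67 for miR-126a-3p and 0 to 1 members lower. For miR-486-5p (0.15) the sign turned to -0.015 with shared rows summed, and leaving out single libraries gave -0.084 to 0.39. miR-486-3p came to 0.0047 and the red cell sum to 0.32 (main -0.06) with totals without the 5 most abundant miRNAs. Of all miRNAs, 57 were higher, against 34 with only rows at 0 removed, 114 with quantile normalization, 105 without the top 5 in the totals and 27 to 48 without single libraries. Lower were 151, against 100 with quantile normalization and 106 to 125 without single libraries. Of the 9 linked miRNAs 8 were lower, against 4 with quantile normalization, 5 with shared rows summed and 4 to 6 without single libraries. The causes of these changes were not tested.

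At E12.5 the count of members at least 4-fold apart was, for motoneurons over V2a (0), 1 with values as deposited and 3 at 2-fold. For motoneurons over V3 (1) it was 3 with values as deposited, 2 with a pseudocount of 0.5 and 3 at 2-fold. For V2a over V3 (2) it was 1 with the median of ratios, 1 with TMM factors and 0 with a pseudocount of 5. The share of all miRNAs under these other settings was not counted, so these counts have no background. Values as deposited have far larger library totals, so the 1 added to them damps low counts less. The 1 member called there between motoneurons and V2a was miR-150-5p (log2 ratio -2.92), with 1 read against 11. Totals without the 5 most abundant miRNAs gave log2 ratios of 0.98 (motoneurons over V2a) and 3.27 (over V3) for the red cell sum. The endothelial sum was -1.19 over V2a, with -0.94 by the median of ratios, -0.93 by TMM factors and -1.84 without the top 5. It was 0.02 over V3, with -0.22, -0.19 and -0.81 in that order, so its sign there depends on scaling. V2a over V3 was 1.22, with 0.72, 0.74 and 1.03.

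Replicate numbers are shared between the E10.5 groups, but the labels do not tie them to a litter or day, and only 2 pairs exist (correlation of deviations 0.26). With a replicate block, miR-126a-3p stayed at -1.07 (SE 0.16, limma adjusted p = 0.00602), with 67 miRNAs higher and 162 lower. With 2 libraries per group at E10.5 and 1 per population at E12.5, and few reads for most blood miRNAs, small differences were not detectable.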
